A study of Homo sapiens with 3 samples.

Results

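The cytosolic ribosomal protein genes are the protein-coding genes whose symbols start with RPL or RPS plus a number, together with *RPLP0*, *RPLP1*, *RPLP2* and *RPSA*. *RPS6* kinase genes, *RPS27L*, *RPS19BP1* and pseudogenes were left out. Members were taken from the RefSeq accession of each array probe, which gave 85 genes of 18216 protein-coding genes with a probe. Of these members, 75 encode the standard proteins of the ribosome, 45 of the large subunit and 30 of the small subunit, and are called core members here. The other 10 are paralogues of a core member or readthrough genes. In the annotation 89 genes fitted the rule, and *RPL10*, *RPSA*, *RPL17-C18orf32* and *RPS10-NUDT3* had no probe named by accession. The members had 161 probes, with 1 probe for 42 members and several for the other 43, up to 9 for *RPL21*.

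Gene expression was measured in A549, a line from a human lung adenocarcinoma, after transient transfection of each strand of the *miR-139* precursor. RNA from mock cells, which received the reagent with no small RNA, was set on 1 array. Cells given *miR-139-5p* and cells given *miR-139-3p* provided RNA for 1 array each. The study's general methods give 10 nM for miRNA precursors, and the labels of the arrays give no dose. Both miRNAs were transfected with Lipofectamine RNAiMAX, and the cells were grown in RPMI 1640 medium. No control small RNA was on an array, so the response to a foreign small RNA and the response to the sequence of each miRNA cannot be told apart.

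Ribosomal proteins are made in step with ribosomal RNA, and each joins the large or the small subunit during assembly in the nucleolus. Their mRNAs mostly begin with a C followed by an unbroken run of pyrimidines, the 5′ terminal oligopyrimidine (TOP) motif, through which growth signals by way of mTOR control their translation. Free ribosomal proteins that find no place in a subunit are degraded, and some of them bind the ubiquitin ligase *MDM2*.

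The mature strands are shown because the comparisons differ in which strand was added. Their sequences come from RefSeq on assembly GRCh38.p14, minus strand, at chr11:72615066-72615088 for *miR-139-3p* and chr11:72615102-72615124 for *miR-139-5p*, with the seed, bases 2 to 8, in capitals. The seeds differ, so the strands fall into separate seed groups.
*miR-139-3p*: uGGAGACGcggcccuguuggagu
*miR-139-5p*: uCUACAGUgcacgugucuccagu

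Starts of member genes are shown because the TOP motif is what this family is known for. Array values are given for members with and without a pyrimidine run at an annotated start. Each window holds 30 bases of GRCh38.p14 from RefSeq, from 10 before the annotated start to 20 from it on, and capitals mark a run of C or T that begins with a C at the start and is at least 5 bases long. *RPL14* (chr3:40457329-40457358, plus strand), *RPS3* (chr11:75399508-75399537, plus) and *RPL22* (chr1:6199576-6199605, minus) hold a run, as do *RPL26* (chr17:8383174-8383203, minus), *RPS6* (chr9:19380217-19380246, minus) and the paralogue *RPL22L1* (chr3:170870176-170870205, minus). *RPS26* (chr12:56041908-56041937, plus), *RPS28* (chr19:8321486-8321515, plus) and *RPL36AL* (chr14:49620607-49620636, minus) have none at the start listed.
*RPL14*: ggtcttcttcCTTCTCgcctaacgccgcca
*RPS3*: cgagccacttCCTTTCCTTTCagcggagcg
*RPL22*: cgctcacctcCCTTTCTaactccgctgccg
*RPL22L1*: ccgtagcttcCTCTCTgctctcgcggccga
*RPL26*: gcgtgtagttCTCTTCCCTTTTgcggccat
*RPS6*: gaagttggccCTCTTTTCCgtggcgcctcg
*RPS26*: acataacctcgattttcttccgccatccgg
*RPS28*: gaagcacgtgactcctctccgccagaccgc
*RPL36AL*: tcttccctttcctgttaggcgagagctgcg

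Of the core members, 60 were in the table of starts, and 44 of them (73.3%) had at least 1 start with such a run. Over all protein-coding genes the share was 988 of 15843 (6.24%). It was 15 of 16 (93.8%) for other genes known for TOP mRNAs, 6 of 70 (8.57%) for mitochondrial ribosomal proteins and 6 of 64 (9.38%) for ribosome biogenesis factors. A match describes the letters at an annotated start and is not a measured mRNA end. A gene without a match can still hold a run close by. In the windows above, a run begins just after the start of *RPS28*, and another spans the start of *RPL36AL*. The lack of a match thus does not show that an mRNA lacks the motif.

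Each array carried 60901 spots for 58201 probes. The mock array had 30384 of them (49.9%) well above background, the array of *miR-139-5p* had 29271 (48.1%) and that of *miR-139-3p* had 32329 (53.1%), and 0 were saturated. Outlier spots, set aside by the scanner software, numbered 614 in mock, 935 after *miR-139-5p* and 1526 after *miR-139-3p*. All 170 member spots passed that background limit in mock and after *miR-139-3p*, and 169 did after *miR-139-5p*. Outliers among the member spots numbered 1 in mock, 8 after *miR-139-5p* and 15 after *miR-139-3p*. Core probes had a median signal of 24727 in mock, 26520 after *miR-139-5p* and 22241 after *miR-139-3p*, in arbitrary scanner units before scaling. The 75th percentile of all spots, by which each array was scaled, was 93.6 in mock, 88.9 after *miR-139-5p* and 81.0 after *miR-139-3p*.

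Cell identity was read from markers on the same arrays. All 5 epithelial markers (*KRT8*, *KRT18*, *KRT19*, *EPCAM* and *CDH1*) were well above background on the 3 arrays, and *KRT18* had the brightest probe of them, at 73823 in mock, 46926 after *miR-139-5p* and 42507 after *miR-139-3p*. Of the 8 genes that mark A549 by high NRF2 and aldehyde dehydrogenase activity, 7 were well above background on all arrays, and *AKR1C2* had no probe. *AKR1B10* read 53389, 62528 and 18509 in the same order, *ALDH1A1* 36438, 30155 and 33925, and *ALDH3A1* 12750, 5012 and 2364, so that levels of some markers differed between the arrays. Of the 4 alveolar markers 2 were well above background, *NAPSA* (17.7, 11.1 and 25.7) and *SFTPC* (17.3, 11.3 and 7.66), while *NKX2-1* and *SFTPB* were not. For leukocytes, 1 of 4 markers was above background on all arrays (*PTPRC*, 10.3, 10.2 and 20.1), for endothelium 1 of 3 (*CDH5*, 14.5, 11.4 and 25.1) and for fibroblasts 2 of 3 (*COL1A1*, 40.1, 101 and 22.7, and *PDGFRB*, 6.91, 6.85 and 11.5). *COL1A2* and *PECAM1* were well above background on none of the arrays. These signals are before scaling, and the part of such changes in the results below was not tested.

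Differences are log2 fold changes against mock of the scaled signal, averaged over the probes of a gene that were well above background on both arrays, and a gene counted as lower or higher past 0.5. Each group had 1 array, so no difference has a replicate check, none was tested, and their number limits the precision. Slide 1 held mock and *miR-139-5p* and slide 2 held *miR-139-3p*, so slide and transfection cannot be told apart for *miR-139-3p*. Both comparisons share the mock array. Calls and ranks of genes are those of the main scaling unless another is named. In bulk RNA, a change in the share of cells and a change in RNA per cell cannot be told apart. Within an array, the 10 spots of the *RPL30* probe had an SD of 0.05 in mock (10 spots used), 0.04 with *miR-139-5p* (8 used) and 0.02 with *miR-139-3p* (8 used). Probes of the same gene differed by a median SD of 0.27 in the *miR-139-3p* comparison (3331 genes) and 0.15 in the *miR-139-5p* comparison (3404 genes), and for core members with several probes it was 0.15 (39 genes) and 0.08 (40 genes). The 7 probes for E1A spike-in RNA had an SD of 0.13 after *miR-139-3p* and 0.03 after *miR-139-5p*.

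With *miR-139-3p*, most ribosomal protein genes lay within 0.5 of their mock level while other genes spread more widely. Of 71 core members with a value, 7 were lower (9.86%), against 30.5% of 13551 protein-coding genes, and 5 were higher (7.04%), against 23%. The lower members were *RPS28*, *RPS26*, *RPL14*, *RPS2*, *RPS3*, *RPL22* and *RPS9*, at −0.82 to −0.54, and the higher ones were *RPL27A*, *RPL32*, *RPL26*, *RPL37* and *RPS23*, at 0.50 to 1.39. The other 59 passed in neither direction. The SD over core members was 0.39, against 0.89 over all protein-coding genes.

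The core median was 0.08 with quartiles of −0.09 and 0.22, but its sign depends on the scaling: it was below 0 without scaling (−0.13), with E1A probes (−0.12), quantile normalization (−0.10), a lowess fit (−0.05), normexp (−0.00082) and the deposited log2 values (−0.11). Scaled to probes detected on each of the arrays, it was 0.04 by their median and 0.21 by their 75th percentile. The median of all protein-coding genes was −0.13, and it moved by −0.21 without scaling, by −0.19 with E1A probes and by 0.14 with the 75th percentile over detected probes. Relative to that median the core median lay 0.03 to 0.20 higher over 9 scalings, lowest with the deposited values. Counted relative to it, 5 core members were lower and 9 higher in the main scaling and also without scaling. These counts were 5 and 5 with a lowess fit and 4 and 4 with the deposited values. No share of all protein-coding genes counted in this way is given, so the counts are a description only.

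With *miR-139-5p*, no core member passed the threshold in the main scaling. Under alternatives at the same threshold, *RPL32* was higher with E1A scaling (0.56) and with the highest probe (0.60), and *RPL13* (−0.60) and *RPL28* (−0.58) were lower with the lowest probe. Of 73 with a value, 0 were lower, against 12.2% of 13193 protein-coding genes, and 0 were higher, against 10.6%. The family lay in a narrow band, from −0.23 to 0.44, with 63 members above 0 and 10 below. Its median was 0.16 with quartiles of 0.04 and 0.23, and it was above 0 under all 9 scalings, from 0.04 with the deposited values to 0.28 with E1A probes. The E1A scaling moved the median of all genes, −0.01, by 0.12, and relative to all genes the core median lay 0.05 to 0.16 higher over the 9 scalings. The SD over core members was 0.13, against 0.47 over all protein-coding genes, and 34 of the 73 were within the median SD between probes of 0.15. For *miR-139-3p*, 44 of 71 were within the corresponding 0.27.

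**Figure D1:**
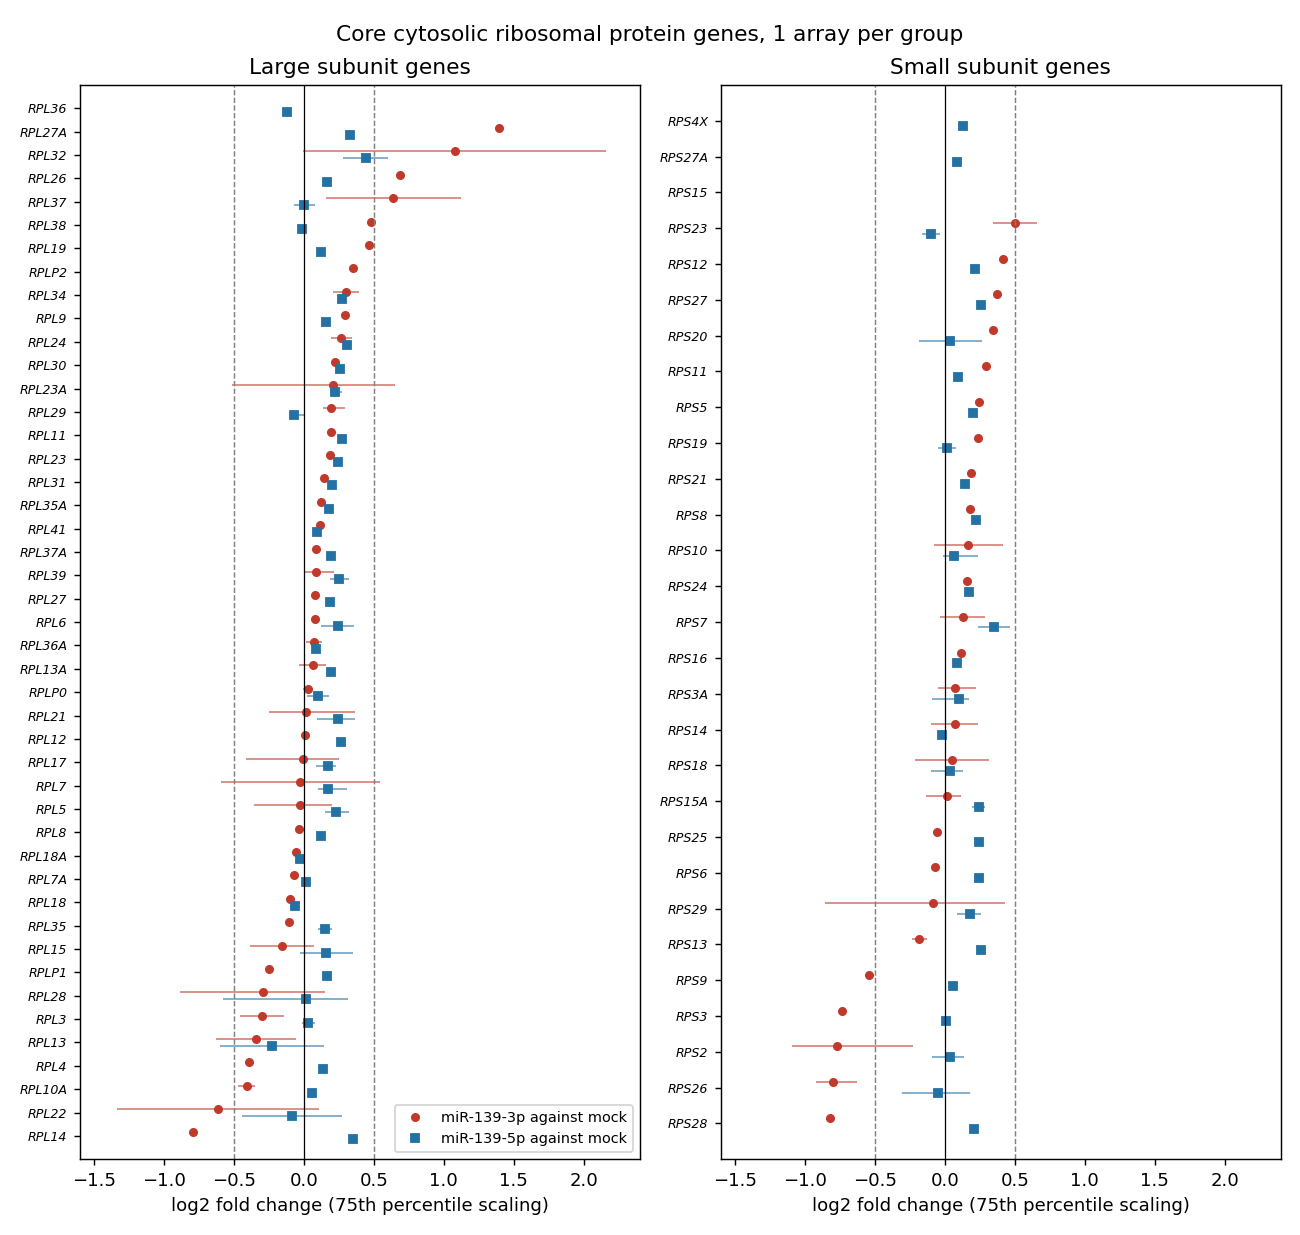
Log2 fold change against mock (horizontal axis, 75th percentile scaling) of core ribosomal protein genes (1 is not drawn), for *miR-139-3p* (red circles) and *miR-139-5p* (blue squares), with lines for the range over probes and dashed lines at the threshold of 0.5. For *miR-139-5p* no member passed the threshold in this scaling, and for *miR-139-3p* 7 were lower and 5 higher of 71, counts that ran from 5 to 11 and from 2 to 9 over 9 scalings.

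Ribosomal protein mRNAs give bright spots, so the family was also set beside other genes of like signal. These were the other protein-coding genes whose mock level lay between the 10th and 90th percentile of core members. With *miR-139-3p*, 134 of 389 of them were lower (34.4%) and 32 higher (8.23%), with a median of −0.30. With *miR-139-5p*, 28 of 403 were lower (6.95%) and 8 higher (1.99%), with a median of −0.01. Core members gave the shares above, 9.86% lower and 7.04% higher for *miR-139-3p* and 0 in either direction for *miR-139-5p*. Whether the family differs from those genes was not tested.

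By subunit, the medians lay close together in both comparisons. The 44 large subunit genes with a value for *miR-139-3p* had a median of 0.07, with 2 lower and 4 higher, and the 27 small subunit genes had a median of 0.08, with 5 lower and 1 higher, against 30.5% lower and 23% higher of all protein-coding genes. Over 9 scalings the lower count ran from 1 to 6 for the large subunit and from 4 to 5 for the small, and the higher count from 2 to 6 and from 0 to 3. These 2 medians also take the sign of the scaling, from −0.14 to 0.21 for the large subunit and from −0.14 to 0.22 for the small. For *miR-139-5p* the medians were 0.17 over 44 large subunit genes and 0.10 over 29 small subunit genes, above 0 under all 9 scalings.

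A list of 8 small subunit proteins along the path of mRNA was chosen with results of these arrays known, so its counts are a description and support nothing by themselves. *RPS2* and *RPS3* line the channel by which mRNA enters, *RPS23* reaches into the decoding centre, and *RPS26* and *RPS28* lie where mRNA leaves. In the list 6 genes had a value for *miR-139-3p*, of which 4 were lower and 1 was higher, against 30.5% and 23% of all protein-coding genes, with a median of −0.75 that ran from −0.96 to −0.53 over 9 scalings. For *miR-139-5p* 7 had a value, with 0 lower and 0 higher, against 12.2% and 10.6% of all protein-coding genes. Their median was 0.01 and ran from −0.08 to 0.13.

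*RPS28* was read by a pair of probes that gave nearly the same difference. The first had signals of 37087 in mock, 40720 after *miR-139-5p* and 18192 after *miR-139-3p*, and the second had 24985, 27460 and 12304 in the same order. On both probes the *miR-139-3p* array was the low one. The log2 fold change of *RPS28* was −0.82 after *miR-139-3p* (−0.82 and −0.81 by probe) and 0.21 after *miR-139-5p*.

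*RPS26*, mutated in some cases of Diamond-Blackfan anaemia, had 3 probes of very unequal brightness. Their signals were 39738, 11851 and 45.3 in mock, 42828, 11146 and 34.9 after *miR-139-5p* and 22247, 5425 and 21.8 after *miR-139-3p*. All 3 were lowest with *miR-139-3p*. Its log2 fold change was −0.80 for *miR-139-3p*, from −0.92 to −0.63 by probe, and −0.05 for *miR-139-5p*, from −0.30 to 0.18.

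*RPS3*, also known for a role in DNA repair, had 1 probe, with signals of 6358 in mock, 6088 after *miR-139-5p* and 3310 after *miR-139-3p*. Its log2 fold changes were −0.73 after *miR-139-3p* and 0.01 after *miR-139-5p*. The mock and *miR-139-5p* arrays were alike for this gene, and the *miR-139-3p* array stood below them.

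*RPS2* had 3 probes that disagreed in size. The first read 100842 in mock, 105271 after *miR-139-5p* and 74459 after *miR-139-3p*, the second 47643, 42539 and 19392, and the third 13970, 13859 and 6074. Their log2 fold changes for *miR-139-3p* were −0.23, −1.09 and −0.99, all below 0, with a mean of −0.77. By its brightest probe alone, at −0.23, *RPS2* did not pass the threshold. For *miR-139-5p* its mean was 0.04.

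*RPS23* was the member of this list on the other side, just inside the threshold at 0.50 for *miR-139-3p*. Its probes read 23081 and 1107 in mock, 21445 and 938 after *miR-139-5p* and 25335 and 1514 after *miR-139-3p*. The *miR-139-3p* array was the high one on both, with log2 fold changes of 0.34 and 0.66, and *RPS23* passed the threshold under 5 of 9 scalings. For *miR-139-5p* it was −0.10. *RPS14*, on the platform of the small subunit, had 0.07 after *miR-139-3p* and −0.02 after *miR-139-5p*, and *RPS27A*, made as a fusion with ubiquitin, had 0.09 for *miR-139-5p*.

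*RPS9*, a lower member that also lies near the mRNA entry but was not in the list, had signals of 18298 and 7718 in mock, 18442 and 7526 after *miR-139-5p* and 11157 and 4500 after *miR-139-3p* on its probes. At −0.54 for *miR-139-3p* (−0.51 and −0.57 by probe) it was the last inside the threshold, and it passed under 6 of 9 scalings. It was 0.06 for *miR-139-5p*. Just outside stood *RPL10A*, at −0.41 after *miR-139-3p* and 0.06 after *miR-139-5p*.

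**Figure D2:**
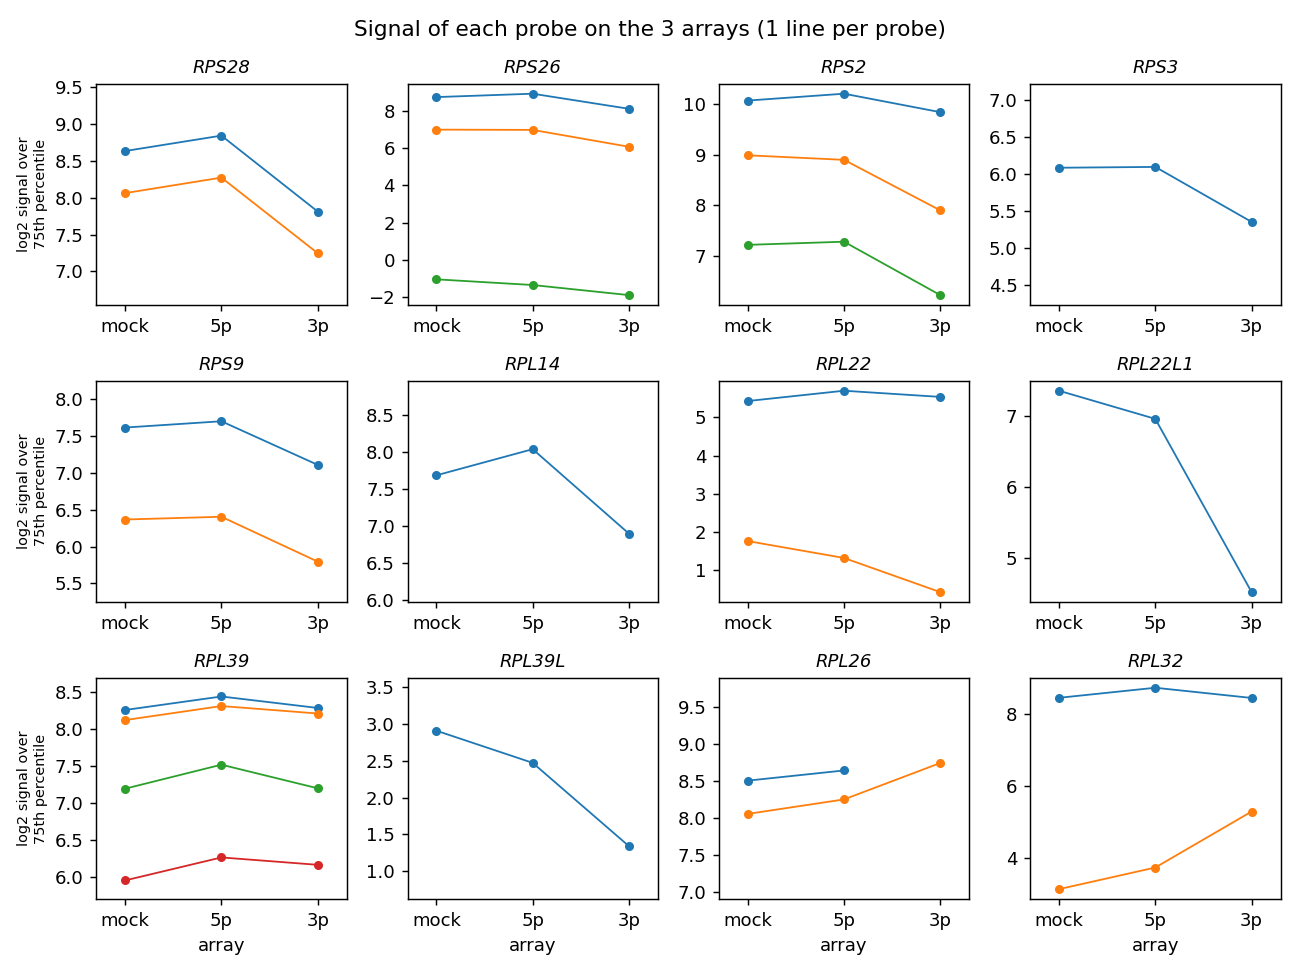
Log2 signal of each probe over the 75th percentile of its array (vertical axis, a scale per panel) on the 3 arrays, with 1 line per probe. All probes of *RPS28*, *RPS26*, *RPS3*, *RPS9* and *RPL14* were lowest with *miR-139-3p*, as were the probes of *RPL22L1* and *RPL39L*, while the probes of *RPL22* and *RPL32* disagreed.

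Among large subunit genes, *RPL14* was lower with *miR-139-3p*. Its 1 probe read 19321 in mock, 23464 after *miR-139-5p* and 9667 after *miR-139-3p*. The arrays thus lay in the order *miR-139-3p*, mock, *miR-139-5p*, with log2 fold changes of −0.79 after *miR-139-3p* and 0.35 after *miR-139-5p*. *RPL14*, *RPS2*, *RPS3*, *RPS26* and *RPS28* were the 5 core members lower with *miR-139-3p* under all 9 scalings, and *RPS26* and *RPS28* were also lower under each choice of probe. *RPS2* was not, and *RPL14* and *RPS3* have 1 probe, so that choice could not change them.

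The remaining large subunit calls for *miR-139-3p* rested on dim or disagreeing probes, or for *RPL26* on 1 probe of a pair. *RPL22* had a probe at 4017 in mock, 4602 after *miR-139-5p* and 3748 after *miR-139-3p*, and another at 318, 222 and 109. Their log2 fold changes for *miR-139-3p* were 0.11 and −1.34, so that its mean of −0.61, past the threshold under 6 of 9 scalings, takes its sign from the dim probe. For *miR-139-5p* they were 0.27 and −0.44, with a mean of −0.09.

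*RPL32* was the mirror case. Its probes read 32515 and 814 in mock, 37504 and 1174 after *miR-139-5p* and 28068 and 3146 after *miR-139-3p*. For *miR-139-3p* the log2 fold changes were −0.0038 and 2.16, with a mean of 1.08 that comes from the second probe alone. For *miR-139-5p* they were 0.28 and 0.60, with a mean of 0.44, the highest core value in that comparison and the nearest to the threshold.

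*RPL27A* had 1 dim probe, at 14.8 in mock, 17.8 after *miR-139-5p* and 33.7 after *miR-139-3p*, which gave 1.39 after *miR-139-3p* and 0.33 after *miR-139-5p*. The value for *miR-139-3p* was the highest of the core in the main scaling and ran from 0.46 to 1.53 over 9 scalings. With normexp it was the 0.46, short of the threshold and below *RPL32* at 1.02. *RPL37*, a zinc finger protein of the large subunit, had a bright probe at 0.16 for *miR-139-3p* (28142 in mock, 28269 after *miR-139-5p* and 27156 after *miR-139-3p*) and a dim one at 1.12 (50.5, 45.6 and 94.9). Its mean was 0.64 after *miR-139-3p* (0.33 to 0.78 over 9 scalings, past the threshold under 6) and 0.0033 after *miR-139-5p*. By brightness, the 10 core probes with a mock signal under 1000 had an SD of 1.14 for *miR-139-3p*, and the 127 at 1000 or more had an SD of 0.34.

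*RPL26*, at the exit of the peptide tunnel, had a pair of bright probes, and its call rests on 1 of them. That probe read 24854 in mock, 27060 after *miR-139-5p* and 34692 after *miR-139-3p*, which gave 0.69 for *miR-139-3p*. Its other probe, at 33967 in mock, was an outlier spot on the *miR-139-3p* array and stood at 0.34, short of the threshold, when kept. With outlier spots kept, the mean over both probes still passed the threshold. *RPL26* was 0.17 for *miR-139-5p* over both probes, and it passed the threshold for *miR-139-3p* under 6 of 9 scalings. *RPL38* was just outside at 0.48, with signals of 45100 in mock, 42343 after *miR-139-5p* and 54391 after *miR-139-3p*.

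Probes of a gene disagreed most, for *miR-139-3p*, in *RPL32*, *RPL22* and *RPS29*, a small subunit protein with a zinc finger, whose 4 probes ran from −0.85 to 0.43 around a mean of −0.08. For *miR-139-5p* they disagreed most in *RPL28* (−0.58 to 0.32 over 3 probes, mean 0.01), *RPL13* and *RPL22*. *RPL13* had a probe at 69510 in mock, 72897 after *miR-139-5p* and 57931 after *miR-139-3p* and another at 11968, 7486 and 6702. Its log2 fold changes for *miR-139-5p* were 0.14 and −0.60, with a mean of −0.23, the lowest core value in that comparison. Probes of ribosomal protein genes can also bind mRNAs of paralogues and transcripts of pseudogenes, and how much they did was not tested.

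The other low values for *miR-139-5p* were *RPL36* at −0.12, *RPS23* at −0.10, *RPL22* at −0.09 and *RPL29* at −0.07. Beside *RPL32*, the high ones were *RPS7* at 0.36, *RPL14* at 0.35, *RPL27A* at 0.33 and *RPL24* at 0.31. *RPS7*, which binds *MDM2* when free, had probes at 47530 and 19656 in mock, 53351 and 25869 after *miR-139-5p* and 40235 and 20794 after *miR-139-3p*. *RPL24*, which bridges the subunits, had probes at 23539 and 14512 in mock, 27521 and 17110 after *miR-139-5p* and 23249 and 15944 after *miR-139-3p*. On all 4 of these probes the *miR-139-5p* array was the highest before scaling, and neither gene passed the threshold.

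The acidic stalk of the large subunit recruits the elongation factors. *RPLP0*, its base, read 60547 and 35135 in mock, 65154 and 33928 after *miR-139-5p* and 52255 and 31775 after *miR-139-3p* on its probes, which gave 0.03 after *miR-139-3p* and 0.10 after *miR-139-5p*. *RPLP1* had 62316 in mock, 66403 after *miR-139-5p* and 45264 after *miR-139-3p*, or −0.25 after *miR-139-3p* and 0.17 after *miR-139-5p*. *RPLP2* had 44875 in mock and 49399 with *miR-139-3p*, or 0.35, and its spot was an outlier on the *miR-139-5p* array. *RPL12*, at the foot of the stalk, had 0.0057 after *miR-139-3p* and 0.26 after *miR-139-5p*. In the main scaling none of these 4 passed the threshold, while *RPLP1* was lower with *miR-139-3p* under 2 of 9 scalings (−0.64 to −0.11), and the list's medians were 0.02 and 0.17.

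*RPL5* and *RPL11* join the large subunit with the 5S RNA and, when free, bind *MDM2*. The 4 probes of *RPL5* had a mean log2 fold change of −0.03 after *miR-139-3p* (−0.35 to 0.20) and 0.23 after *miR-139-5p* (0.15 to 0.32). *RPL11* read 22526 in mock, 25791 after *miR-139-5p* and 22240 after *miR-139-3p*, or 0.19 after *miR-139-3p* and 0.27 after *miR-139-5p*. *MDM2* itself, over 3 probes, had a mean signal of 88.8 in mock, 106 after *miR-139-5p* and 449 after *miR-139-3p*. It was higher with *miR-139-3p* at 2.55, from 2.36 to 2.80 by probe, and 0.33 for *miR-139-5p*. *MDM4*, the partner of *MDM2*, had −0.23 after *miR-139-3p* and −0.16 after *miR-139-5p*, and *RPL23*, which also binds *MDM2*, had 0.19 and 0.24 in that order. *RPL5* and *RPL11* as a list of their own had medians of 0.08 and 0.25. For *miR-139-3p* the medians of the stalk and of this pair changed sign with the scaling.

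*RPS6*, the substrate of the S6 kinases, read 45302 in mock, 50991 after *miR-139-5p* and 37301 after *miR-139-3p*, or −0.07 after *miR-139-3p* and 0.24 after *miR-139-5p*. *RPSA* had no probe named by accession. Proteins around the peptide exit tunnel formed a list of 8 with 0 lower and 1 higher (*RPL26*) for *miR-139-3p*, against 30.5% and 23% of all protein-coding genes, a median of 0.11 and the extremes *RPL4* (−0.39), *RPL35* (−0.10), *RPL17* (−0.0066), *RPL23A* (0.21), *RPL19* (0.46) and *RPL26*. The lower count of the list ran from 0 to 1 over 9 scalings and the higher count from 0 to 2, and *RPL4* was lower under 5 of them. The same list had 0 lower and 0 higher for *miR-139-5p*, against 12.2% and 10.6% of all protein-coding genes, and a median of 0.17. Of the 20 ribosomal protein genes of Diamond-Blackfan anaemia, 2 were lower with *miR-139-3p* (10%, *RPS26* and *RPS28*) and 1 was higher (5%, *RPL26*). Of all protein-coding genes, 30.5% were lower and 23% higher. The higher count ran from 0 to 2 over 9 scalings. These 20 genes had a median of 0.10, and next to the calls were *RPS20* at 0.35 and *RPS27* at 0.37. For *miR-139-5p* they had 0 lower and 0 higher, against 12.2% and 10.6% of all protein-coding genes, and a median of 0.17. The *miR-139-3p* medians of these 2 lists were below 0 without scaling and with E1A probes, among others, down to −0.09 for the tunnel and −0.11 for the anaemia list.

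Some core members gave no value because their only spot was an outlier. For *miR-139-3p* these were *RPL36*, *RPS15*, *RPS27A* and *RPS4X*, with log2 fold changes of −0.12, −0.30, 0.04 and −0.13 when the spots were kept. For *miR-139-5p* they were *RPLP2* and *RPS15*, with 0.34 and 0.15. None would have passed the threshold.

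The paralogues *RPL22L1* and *RPL39L* had the lowest values of all members with *miR-139-3p*. *RPL22L1*, which can take the place of *RPL22* in ribosomes, read 15311 in mock, 11055 after *miR-139-5p* and 1859 after *miR-139-3p* on its 1 probe. The *miR-139-3p* array stood far below the others, with a log2 fold change of −2.83 that ran from −3.04 to −2.70 over 9 scalings. For *miR-139-5p* it was −0.40. Beside it, *RPL22* had the 0.11 and −1.34 given above.

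The second, *RPL39L*, which stands in for *RPL39* at the exit tunnel in testis and in some cancers, followed the same order. Its 1 probe read 701 in mock, 492 after *miR-139-5p* and 205 after *miR-139-3p*, or −1.56 after *miR-139-3p* (−1.77 to −1.38 over 9 scalings) and −0.44 after *miR-139-5p*. *RPL39* itself, over 4 probes, was 0.08 after *miR-139-3p* (0.0053 to 0.21) and 0.25 after *miR-139-5p* (0.18 to 0.32). *RPL22L1* and *RPL39L* were thus lower with *miR-139-3p* while no probe of *RPL39* and only the dim probe of *RPL22* was.

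*RPL7L1* was lower with *miR-139-5p*, at 378 in mock, 245 after *miR-139-5p* and 285 after *miR-139-3p*, or −0.55 after *miR-139-5p* and −0.20 after *miR-139-3p*. It passed the threshold under 7 of 9 scalings, and *RPL7* had 0.17 after *miR-139-5p* and −0.03 after *miR-139-3p* (−0.60 and 0.54 by probe). *RPL36AL*, a copy of *RPL36A* without introns, read 20674 in mock, 22601 after *miR-139-5p* and 16873 after *miR-139-3p*, or −0.08 after *miR-139-3p* and 0.20 after *miR-139-5p*. *RPL36A* had 0.07 after *miR-139-3p* and 0.08 after *miR-139-5p*, and the readthrough *RPL36A-HNRNPH2* (183 in mock, 230 after *miR-139-5p* and 240 after *miR-139-3p*) had 0.60 after *miR-139-3p* and 0.40 after *miR-139-5p*. Of these 3 genes only the readthrough passed the threshold, with *miR-139-3p* and under 6 of 9 scalings, and under 1 with *miR-139-5p*. *RPL26L1* had −0.08 after *miR-139-3p* and −0.15 after *miR-139-5p*. *RPL10L*, a testis paralogue of *RPL10*, had −0.04 after *miR-139-3p* and 0.12 after *miR-139-5p*. The sign of *RPL10L* in both comparisons and that of *RPL26L1* with *miR-139-3p* also depend on the scaling. *RPL3L*, a muscle paralogue of *RPL3*, was dim at 9.69 in mock and had 0.32 after *miR-139-3p*, with a sign that depends on the scaling (−0.15 to 0.46), and 0.12 after *miR-139-5p*, and *RPL3* had −0.30 after *miR-139-3p* and 0.03 after *miR-139-5p*.

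Core members were also divided by the start of the gene. Those with a TOP run at an annotated start had a median of 0.08 for *miR-139-3p* over 42 genes, with 4 lower and 3 higher, and those without had −0.05 over 14 genes, with 2 lower and 1 higher, where 30.5% of all protein-coding genes were lower and 23% higher. Both medians change sign with the scaling, from −0.13 to 0.22 with a run and from −0.25 to 0.09 without, and the lower count of each ran from 2 to 5. The higher count ran from 1 to 6 with a run and from 1 to 2 without. For *miR-139-5p* the medians were 0.14 over 43 genes (0.03 to 0.26 over the scalings) and 0.16 over 15 genes (0.06 to 0.28). *RPS26* and *RPS28*, shown above with no run at the start listed, fell with *miR-139-3p*, as did *RPL14* and *RPS3*, shown with a run there. Because a run can lie beside the annotated start, this division is by annotation and not by measured mRNA ends.

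Some ribosomal proteins are encoded under other symbols. *RACK1*, the scaffold on the head of the small subunit, read 12984 in mock, 11610 after *miR-139-5p* and 8278 after *miR-139-3p*, or −0.44 after *miR-139-3p* and −0.09 after *miR-139-5p*. *FAU*, a fusion that yields a small subunit protein, had 0.01 for *miR-139-5p* and an outlier spot with *miR-139-3p*, with 0.41 when it was kept. Neither passed the threshold in the main scaling, and *RACK1* was lower with *miR-139-3p* under 2 of 9 scalings (−0.65 to −0.30).

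Genes that share the TOP motif but code for translation factors and other proteins had a median below 0 with *miR-139-3p* under all 9 scalings. Of 23 with a value, 2 were lower (8.70%) and 0 higher, against 30.5% and 23% of all protein-coding genes, with a median of −0.26. Over the scalings the lower count ran from 1 to 11 and the median from −0.46 to −0.09. *EIF3F* and *EIF3L*, subunits of the initiation factor that brings mRNA to the small subunit, were the lower ones at −0.87 (under all 9 scalings) and −0.59 (under 5), and *NPM1*, a nucleolar chaperone, had −0.50, just short of the threshold. The highest were *NACA* at 0.39, *EIF3H* at 0.22 and *TPT1* at 0.22. For *miR-139-5p* 0 of 24 passed (1 higher at most over the scalings), where 12.2% of all protein-coding genes were lower and 10.6% higher. The median was 0.02 and ran from −0.05 to 0.14. The low extremes were *EIF3G* (−0.29), *NAP1L1* (−0.23, with probes at −0.85 and 0.40) and *EIF3K* (−0.18). The high ones were *TPT1* (0.30), *EEF1B2* (0.31) and *HNRNPA1* (0.49, with probes at 0.20 and 0.78).

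Regulators of TOP mRNAs were lower in part with *miR-139-3p*, 5 of 11 (45.5%) with 0 higher, against 30.5% and 23% of all protein-coding genes, and a median of −0.29. The lower count ran from 3 to 6 over 9 scalings and the median from −0.50 to −0.16. *EIF4EBP1*, which holds back cap-dependent initiation until mTOR phosphorylates it, read 5704 in mock, 5599 after *miR-139-5p* and 1272 after *miR-139-3p*, or −1.96 after *miR-139-3p* and 0.05 after *miR-139-5p*. *CNBP* had −0.92, *TIAL1* −0.70, *EIF4E* −0.56 and *LARP1*, which binds the TOP end itself, −0.54 for *miR-139-3p*. At the other end were *EIF4EBP2* at −0.15, *RPS6KB1* at −0.06 and *TIA1* at 0.24. For *miR-139-5p* 0 of 11 were lower and 1 was higher (9.09%), against 12.2% and 10.6% of all protein-coding genes, with a median of 0.13. This was *EIF4EBP2*, whose mean signal over its probes was 530 in mock, 1143 after *miR-139-5p* and 414 after *miR-139-3p*, with a log2 fold change of 1.18 (0.91 and 1.46 by probe). The next values were *RPS6KB1* at 0.28 and *TIA1* at 0.25, and the lowest were *RPTOR* at −0.39, *MTOR* at −0.18 and *CNBP* at −0.04.

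The factors that build ribosomes act mostly in the nucleolus and leave the finished subunits. Of 76 with a value for *miR-139-3p*, 36 were lower (47.4%) and 3 higher (3.95%), against 30.5% and 23% of all protein-coding genes, with a median of −0.47. Over 9 scalings the lower count ran from 29 to 53 and the median from −0.68 to −0.34, while the share of all genes lower ran from 21.3% to 41.0%. *TCOF1*, which supports transcription of ribosomal DNA, had −1.64 (−1.85 to −0.81 over the scalings), *MRTO4*, which readies the stalk site, −1.41 and *BOP1*, of the complex that matures the large subunit, −1.40. These were the 3 lowest in the main scaling, and with normexp *TCOF1*, at −0.81, stood above the other 2. The higher genes were *SDAD1* (0.92, past the threshold under 7 of 9 scalings, and 0.49 with outlier spots kept), *NIP7* (0.78) and *SBDS* (0.56, under 6). For *miR-139-5p* 7 of 75 were lower (9.33%) and 2 higher (2.67%), against 12.2% and 10.6% of all protein-coding genes, with a median of −0.01. Over the scalings the lower count ran from 5 to 9, the higher count from 1 to 6 and the median from −0.08 to 0.11. *LSG1*, a GTPase of late large subunit maturation, was the lowest at −0.95, then *RRP1* at −0.81 (past the threshold under 8 of 9 scalings) and *PES1* at −0.73. The highest were *GNL3L* (0.69, with probes at 0.20 and 1.18), *NMD3* (0.60, from 0.32 to 0.71 over the scalings) and *DDX10* (0.49).

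RNA polymerase I and its factors, which make the ribosomal RNA, had 7 lower and 1 higher of 14 with *miR-139-3p*, against 30.5% and 23% of all protein-coding genes, with a median of −0.48. The lower count ran from 6 to 8 over 9 scalings and the median from −0.69 to −0.34. The subunits *POLR1G*, *POLR1D* and *POLR1E* were the lowest at −1.56, −1.19 (−1.40 to −0.54 over the scalings) and −0.999, and *TAF1C* (0.54, past the threshold under 6 of 9), *RRN3* (0.31) and *TAF1D* (0.10) the highest. For *miR-139-5p* 0 passed (1 higher at most over the scalings), where 12.2% of all protein-coding genes were lower and 10.6% higher. The median was −0.04 and ran from −0.11 to 0.08. Values went from −0.40 (*TAF1C*), −0.39 (*POLR1C*) and −0.23 (*UBTF*) up to 0.16 (*POLR1D*), 0.36 (*TAF1D*) and 0.45 (*POLR1F*).

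Dedicated chaperones hold single ribosomal proteins until they are built in. For *miR-139-3p* 3 of 5 were lower and 0 higher, against 30.5% and 23% of all protein-coding genes, with a median of −0.58. Over 9 scalings the lower count ran from 2 to 3 and the median from −0.79 to −0.39. *GRWD1*, the chaperone of *RPL3*, read 1956 in mock, 1509 after *miR-139-5p* and 666 after *miR-139-3p*, or −1.35 after *miR-139-3p* and −0.30 after *miR-139-5p*. *TSR2*, the chaperone of *RPS26*, read 1504 in mock, 1238 after *miR-139-5p* and 579 after *miR-139-3p*, or −1.17 after *miR-139-3p* and −0.21 after *miR-139-5p*. *PDCD2*, the chaperone of *RPS2*, had −0.58 (−0.89 and −0.27 by probe, past the threshold under 5 of 9 scalings) and −0.38 in the same order, *HEATR3* −0.17 and 0.26, and *BCCIP* −0.0045 and 0.08. *PDCD2L* had −0.16 for *miR-139-5p* and no value for *miR-139-3p* (−0.66 with its outlier spot kept). For *miR-139-5p* 0 of 6 passed, where 12.2% of all protein-coding genes were lower and 10.6% higher, with a median of −0.18 for the chaperones.

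**Figure D3:**
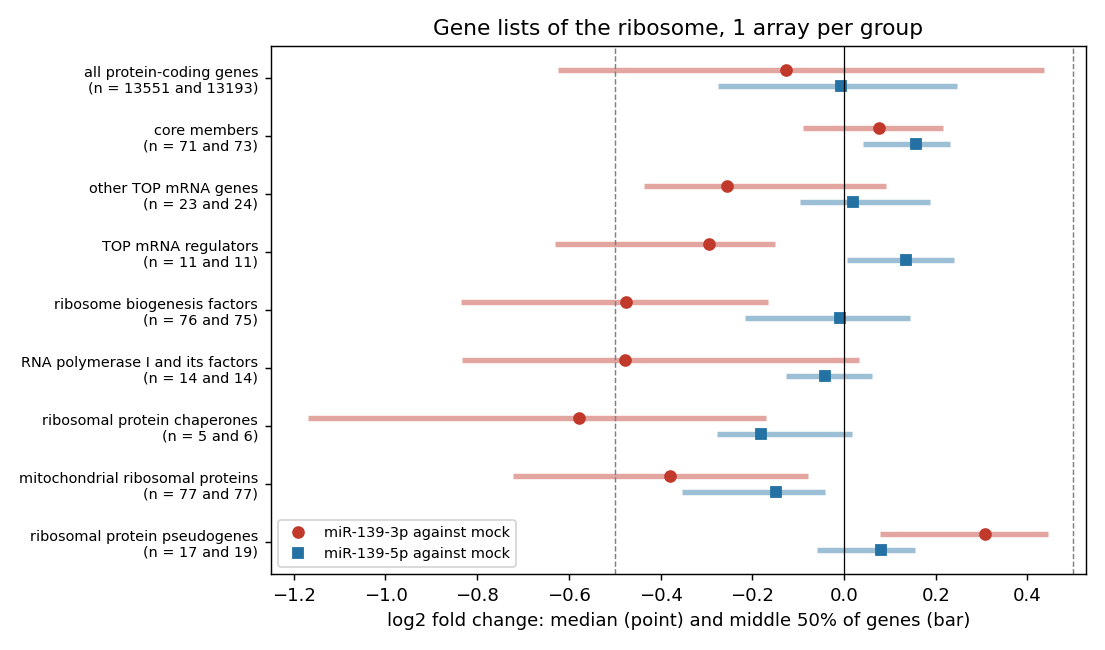
Median log2 fold change against mock (points) and middle 50% of genes (bars) of each list, for *miR-139-3p* (red circles) and *miR-139-5p* (blue squares), with the number of genes with a value for *miR-139-3p* and *miR-139-5p* in brackets and dashed lines at the threshold of 0.5. For *miR-139-3p* the biogenesis factors, RNA polymerase I and mitochondrial ribosomal proteins had medians below 0 under all 9 scalings (−0.47, −0.48 and −0.38 as plotted), while the sign of the core median, 0.08 here, depends on the scaling.

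The mitochondrial ribosomal proteins, which serve a separate ribosome, are the closest family by function. Of 77 with a value for *miR-139-3p* 32 were lower (41.6%) and 3 higher (3.90%), against 30.5% and 23% of all protein-coding genes, with a median of −0.38. Over 9 scalings the lower count ran from 21 to 41 and the median from −0.59 to −0.23. The lowest were *MRPS27* (−1.56), *MRPL10* (−1.37) and *MRPS24* (−1.25), and the highest *MRPS16* (1.30), *MRPL57* (0.89) and *MRPL39* (0.51, past the threshold under 5 of 9 scalings). For *miR-139-5p* 8 of 77 were lower (10.4%) and 0 higher, against 12.2% and 10.6% of all protein-coding genes, with a median of −0.15. Over the scalings the lower count ran from 4 to 15 and the median from −0.22 to −0.03, with *MRPS12* (−1.45), *MRPS34* (−0.99) and *MRPL38* (−0.69) at the low end and *MRPL47* (0.19), *MRPL57* (0.23) and *MRPL30* (0.31) at the high end. The difference between this family and the cytosolic one was not tested.

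Transcripts named as ribosomal protein pseudogenes had medians above 0 in both comparisons under all 9 scalings. Of 17 with a value for *miR-139-3p* 1 was lower (5.88%) and 4 higher (23.5%), against 30.5% and 23% of all protein-coding genes, with a median of 0.31. Over the scalings the lower count ran from 0 to 3, the higher count from 3 to 6 and the median from 0.10 to 0.45. *RPL23AP64* (11.5 in mock, 6.05 after *miR-139-5p* and 46.2 after *miR-139-3p*), *RPL13AP17* and *RPS10P7* were the highest at 2.21 (0.79 to 2.35 over the scalings), 1.80 and 1.62, and *RPSAP9*, *RPL23AP32* and *RPSAP52* the lowest at −0.57, −0.45 and −0.40. For *miR-139-5p* 2 of 19 were lower (10.5%) and 0 higher, against 12.2% and 10.6%, with a median of 0.08. The lower and the higher count each ran from 0 to 2 and the median from 0.0076 to 0.20. The lowest were *RPL23AP64* (−0.86, from −0.93 to −0.04 over the scalings), *RPL13P5* (−0.57, past the threshold under 7 of 9) and *RPL23AP7* (−0.21, with probes at −0.74 and 0.32). The highest were *RPL23P8* (0.30), *RPL23AP87* (0.42, from 0.14 to 0.54) and *RPS16P5* (0.42, from 0.06 to 0.54).

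**Figure D4:**
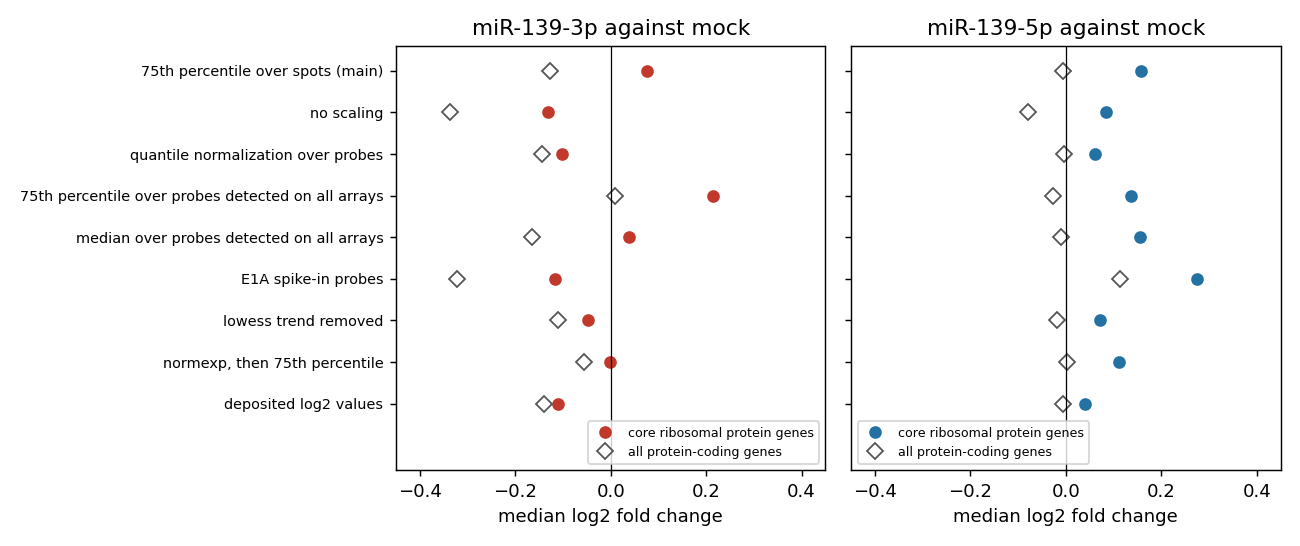
Median log2 fold change (horizontal axis) of core ribosomal protein genes (filled points) and of all protein-coding genes (open diamonds) under each scaling, normexp correction and the deposited values, for *miR-139-3p* (left) and *miR-139-5p* (right). The core median for *miR-139-3p* runs from −0.13 to 0.21 and changes sign with the scaling, that for *miR-139-5p* runs from 0.04 to 0.28, and both lie to the right of the median of all genes in each of the 9 settings.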

How the data were processed

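A549 RNA of 3 groups was read on Agilent arrays of 1 colour, 1 per group. Spot intensity as deposited by the authors was background-subtracted by Feature Extraction 12.1.1.1 and was not normalized between arrays. The authors also deposited log2 values per probe. These correlated with quantile-normalized log2 signals computed here at r of 0.99997 to 0.99999 and had a median of 2.21 on each array, so their scale and centring are known, and no fold change or direction is stored in them. They served as an alternative. No deposited column lay outside the samples of the series.

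From the spot intensities, log2 signals were computed and centred on the 75th percentile of their array (control spots aside), outlier spots were left out and spots of a probe averaged. A probe counted as well above background where at least 50% of its spots did. A gene took the mean over probes well above background on both arrays of a comparison. A gene with none took a bound from its brightest probe well above background on 1 array (no core member did). Accessions were matched, versions removed, to the RefSeq annotation of GRCh38.p14, in which 24751 of 25277 probes with an NM accession were found. The array was designed on another build, so no coordinates of that annotation are used, and coordinates belong to the printed sequences alone.

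The comparisons were each miRNA against mock, at a threshold of 0.5. Members and lists were chosen with earlier results of these data known. The genes named are the 5 lowest and 5 highest core members of each comparison, those past the threshold, the stalk proteins, *RPL5*, *RPL11*, *RPS6*, *RPSA*, the paralogues beside their partners and the 3 with the largest range over probes. Of the other lists, the 3 lowest and 3 highest genes are named, and lists under 8 genes are given whole. A few genes of these kinds are not described here, among them Y-linked paralogues, whose levels are not given. Some counts that rest on them are left out, and the other totals include them. Signals given for other genes were chosen after their values were seen. In total, 17 alternatives changed the scaling, the background correction (normexp with offset 50), the lowess trend (span 0.3), the probe filter, the probe taken, outlier spots, the values used or the threshold. The steps were tested on simulated data. Python 3.11.15, numpy 2.4.6, pandas 2.3.3, statsmodels 0.14.6, matplotlib 3.10.9, R 4.3.3 and limma 3.58.1 were used.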

Additional observations from a re-analysis of the deposited data

How the results depend on the processing

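Over all alternatives run, the core median ranged from −0.13 to 0.21 for *miR-139-3p*, where it changed sign, and from 0.04 to 0.28 for *miR-139-5p*. The count of core members lower with *miR-139-3p*, 7, was 11 without scaling, 12 with the lowest probe of each gene, and 0 and 14 at thresholds of 1 and 0.25. The count higher, 5, was 2 without scaling, with E1A probes, with the brightest probe, with the lowest probe and at a threshold of 1, 3 with normexp, 9 with the 75th percentile over detected probes and 15 at a threshold of 0.25. For *miR-139-5p* the lower count, 0, was 2 with the lowest probe, and the higher count, 0, was 1 with E1A probes, 1 with the highest probe and 12 at a threshold of 0.25. *RPL22* for *miR-139-3p* became 0.11 with its brightest and with its highest probe, and *RPL32* became −0.0038 with its brightest and with its lowest probe. These changes follow from the probe or threshold taken, and for the scalings the cause was not tested. Of the other values of named genes under the alternatives, 2489 moved by less than the median SD that probes of the same gene showed (0.27 in the *miR-139-3p* comparison, 0.15 in that of *miR-139-5p*) and 120 by more. *RPL14*, *RPS26*, *RPS28* and *RPS3* were lower with *miR-139-3p* under all 16 settings at the 0.5 threshold, of which the choices of probe could not change *RPL14* and *RPS3* (1 probe each), and no core member was higher under all of them. Without scaling, 41.0% of all protein-coding genes were lower and 16.6% higher for *miR-139-3p*, against 30.5% and 23% in the main scaling. With E1A probes these shares were 40.2% and 16.9%. They were 34.3% and 21.2% with the lowest probe, and 30.9% and 23.3% with the brightest. With normexp they were 21.3% and 8.83%, and with the 75th percentile over detected probes 24.5% and 27.8%. For *miR-139-5p*, 14.5% of all genes were lower with the lowest probe. The share higher was 16.1% with E1A probes and 12.7% with the highest probe. No share of all genes is given at thresholds of 1 and 0.25, so the core counts there are a description only. Signal over background limits the dim probes: *RPL27A* rests on 1 probe at 14.8 in mock. No paired analysis was possible because each group had 1 array, and no test was run.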
